A study of Bos taurus with 18 samples.

Results

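The MEX3 and IGF2BP genes encode RNA-binding proteins, and all 7 named genes of these families (MEX3A, MEX3B, MEX3C, MEX3D, IGF2BP1, IGF2BP2 and IGF2BP3) were followed in bulk RNA sequencing of bovine endometrium. They were taken by gene symbol from a deposited count table of 38001 genes, in which each has 1 row. All 7 were among the 19638 genes that passed the filter on low counts. The members were selected on a measured value: MEX3A was singled out because its RNA was lower on day 7 than on day 4 of an untreated cycle, and its relatives were added by family name. That contrast is therefore given as a description, with no test for any of the 7 genes. For MEX3A, every comparison that uses the control libraries shares values with the choice, and is described without a test too.

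The cells came from 6 Holstein cattle, each brushed 3 times in the uterine horn beside the corpus luteum. The 17-OHPC/P4 arm held animals A, B and C, the P4 arm held D, E and F, and neither carried a genetic change. In the treated cycle, animals A to C received a depot of 100 mg 17-OHPC (hydroxyprogesterone caproate, a synthetic ester related to progesterone) with 10 mg P4 (progesterone) on day 4 after estrus, and animals D to F received 100 mg P4 on the same day. Treated samples were taken on day 7, and an earlier cycle of the same animals with no injection gave the control samples of day 7 and day 4. All cycles, control cycles included, were synchronized with the Ovsynch hormone protocol. The 18 libraries thus make 6 groups of 3 animals. The control cycle always came first, so cycle order and treatment cannot be told apart, and the arms differ in compound, dose and animals.

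MEX3 proteins bind RNA through KH domains and carry a RING finger with ubiquitin ligase activity, and they were first known from MEX-3 of the worm Caenorhabditis elegans, which represses translation in the embryo. IGF2BP proteins also bind RNA through KH domains. They are known for stabilising and localising mRNAs such as those of IGF2, ACTB and MYC and for reading the m6A mark on RNA. In mammals IGF2BP1 and IGF2BP3 are mostly fetal and reappear in many tumors, whereas IGF2BP2 is also found in adult tissues.

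Library totals ran from 29347255 to 40733544 counts. General epithelial markers, a list of 12 genes that includes EPCAM, CDH1 and KRT8, summed to between 3603 and 6354 CPM (counts scaled to library size) in every library, so the brushings hold epithelial RNA throughout. The 3 libraries of animal C stood apart. Their red blood cell marker sums were 360 to 4175 CPM, against 1.07 to 5.64 CPM in the other 15 libraries, and their B and plasma cell sums were 62.9 to 219 CPM, against 6.64 to 36.9 CPM. Levels below are CPM scaled by TMM (trimmed mean of M values, a correction for library composition). They are not divided by gene length, so they compare libraries and not genes. In brushed tissue, fewer cells of a type and less RNA per cell cannot be told apart.

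MEX3A (ENSBTAG00000019158), which in the mouse intestine marks slowly cycling stem cells, had its highest levels on control day 4 of the P4 arm. In that arm the treated day 7 libraries of animals D, E and F held 1.79, 1.97 and 3.06 CPM, the control day 7 libraries 0.788, 1.39 and 1.34 CPM, and the control day 4 libraries 16.2, 23.6 and 17.1 CPM. Both day 7 groups lay far below day 4 without overlap, and the treated libraries lay above the control libraries of day 7. In the 17-OHPC/P4 arm, animals A, B and C had 2.94, 3.26 and 4.52 CPM on treated day 7, then 1.86, 2.66 and 6.03 CPM on control day 7 and 8.78, 4.95 and 9.21 CPM on control day 4. Here the control day 7 libraries were more spread out, and that of animal C overlapped the day 4 group. Ordered by mean, control day 4 of the P4 arm (18.96 ± 4.03 CPM, SD, n = 3) stood above control day 4 of the 17-OHPC/P4 arm (7.65 ± 2.34 CPM), and control day 7 of the P4 arm was lowest (1.17 ± 0.334 CPM). The treated and control day 7 groups of the 17-OHPC/P4 arm (3.57 ± 0.833 and 3.52 ± 2.22 CPM) and the treated P4 group (2.28 ± 0.682 CPM) lay between them with overlapping neighbours.

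In the control cycle MEX3A was lower on day 7 than on day 4 in 6 of 6 animals, the change that chose it. The log2 change of CPM + 0.5 within an animal ran from -3.70 to -3.25 in the P4 arm and from -1.97 to -0.57 in the 17-OHPC/P4 arm. How often such changes separate the arms over all genes was not computed. The fitted log2 fold change was -4.01 ± 0.48 (SE) in the P4 arm and -1.12 ± 0.42 in the 17-OHPC/P4 arm. MEX3D, which in human cells binds the BCL2 mRNA, was lower on day 7 in 6 of 6 animals too (-0.57 ± 0.16 over both arms). MEX3C, a ubiquitin ligase that in human cells acts on the RNA sensor RIG-I, was lower in 6 of 6 animals (-0.39 ± 0.14). IGF2BP3 was lower in 6 of 6 at 2 to 35 counts per library (-0.46 ± 0.67), and IGF2BP1 was higher in 5 of 6 (1.92 ± 0.93). IGF2BP3, MEX3B (-0.38 ± 0.47) and IGF2BP2 (-0.06 ± 0.25) had errors larger than their fold changes. The share of all genes lower in 6 of 6 animals was not computed.

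**Figure D1:**
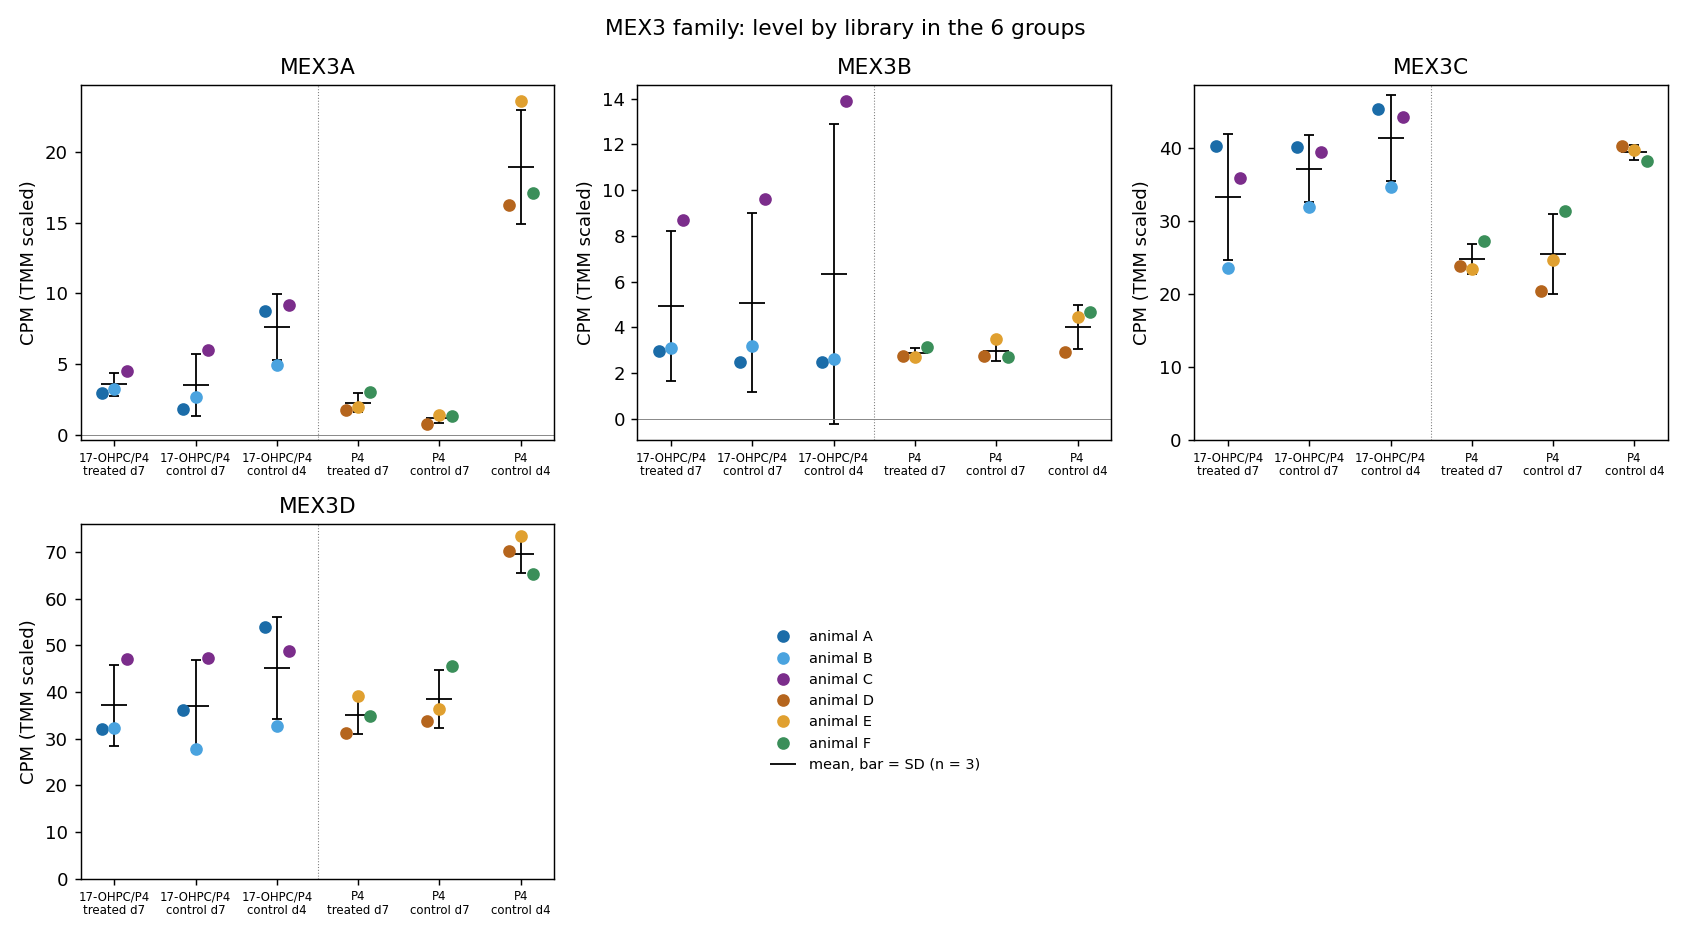
Level of each MEX3 gene (CPM, TMM scaled, vertical axis) in the 18 libraries, by group, with treated day 7, control day 7 and control day 4 from left to right in each arm. Each point is 1 animal, the line is the mean and the bar the SD (n = 3). MEX3A and MEX3D stand highest on control day 4 of the P4 arm, at means of 18.96 and 69.6 CPM, and animal C is highest for MEX3B in its 3 groups.

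Treated day 7 was tested against control day 4, which was sampled in the earlier cycle with no injection. The treated cycle has no sample from the day of injection. The contrast therefore holds days, cycle and treatment together, and it shares its day 4 libraries with the control contrast that chose MEX3A. In the P4 arm the fitted log2 fold change of MEX3A was -3.06 ± 0.45 (SE), and it was lower in 3 of 3 animals. MEX3D fell: its treated libraries held 31.2, 39.2 and 34.9 CPM, against 70.2, 73.4 and 65.2 CPM on control day 4. The groups did not overlap, and the log2 fold change was -0.99 ± 0.23 (adjusted p = 0.0227, edgeR with Benjamini-Hochberg adjustment over all genes tested). With MEX3A counted, whose place in the count follows in part from its choice, 2 of 7 genes passed and both were lower, beside 7.48% of all genes called in either direction, 3.16% lower and 4.32% higher. MEX3D no longer passed with any 1 of 5 libraries left out: the edgeR adjusted p was 0.0516, 0.0927 or 0.07 without the day 4 library of D, E or F, and 0.0718 or 0.0963 without the treated library of D or F. Its log2 fold change stayed between -1.05 and -0.91 over all libraries left out in turn, while the number of all genes called in this comparison ran from 56 to 1807, against 1468 with every library.

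MEX3C had 23.8, 23.4 and 27.2 CPM in the treated P4 libraries, against 40.3, 39.8 and 38.3 CPM on control day 4 of that arm. The groups did not overlap, but the fold change of -0.67 ± 0.20 missed the threshold (adjusted p = 0.0583, edgeR). With the animal as a block it was -0.68 ± 0.15 (adjusted p = 0.0147, edgeR), which passes, and DESeq2 called it too (adjusted p = 0.0271). MEX3B (-0.49 ± 0.66) and IGF2BP3 (-1.17 ± 1.02) had negative values and IGF2BP2 a positive one (0.31 ± 0.35), each with a 95% interval that included 0. MEX3A, MEX3C and MEX3D were the 3 genes whose treated group lay wholly below day 4 in the P4 arm, as did 18.2% of all genes.

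IGF2BP1, known as ZBP1 from its part in ACTB mRNA localisation in chicken cells, had fitted changes of the opposite sign to those of MEX3A between treated day 7 and control day 4. The treated P4 libraries of D, E and F held 3.52, 2.35 and 5.62 CPM, against 0.800, 0.197 and 0 CPM on control day 4, which is 32, 9 and 0 counts. In the 17-OHPC/P4 arm, animals A, B and C had 5.15, 2.60 and 2.68 CPM when treated, against 2.81, 0.249 and 0 CPM on control day 4. The day 4 libraries with no count, from animals C and F, would show 3 counts at 0.0744 and 0.0701 CPM, and lower levels are not detectable at this depth. The treated sample was above day 4 in 6 of 6 animals, by 0.77 to 3.61 on the scale of log2(CPM + 0.5). Neither arm passed in edgeR: the log2 fold change was 3.52 ± 1.40 in the P4 arm (adjusted p = 0.135, edgeR; 0.0296, DESeq2, which passes) and 1.77 ± 1.29 in the 17-OHPC/P4 arm (adjusted p = 0.429, edgeR). In the P4 arm the groups did not overlap, which held in the same direction for 16.5% of all genes. Control day 7 levels lay between the other two in 4 of 6 animals, at 2.51, 2.21 and 1.25 CPM in animals A to C and 4.51, 1.77 and 1.12 CPM in animals D to F.

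**Figure D2:**
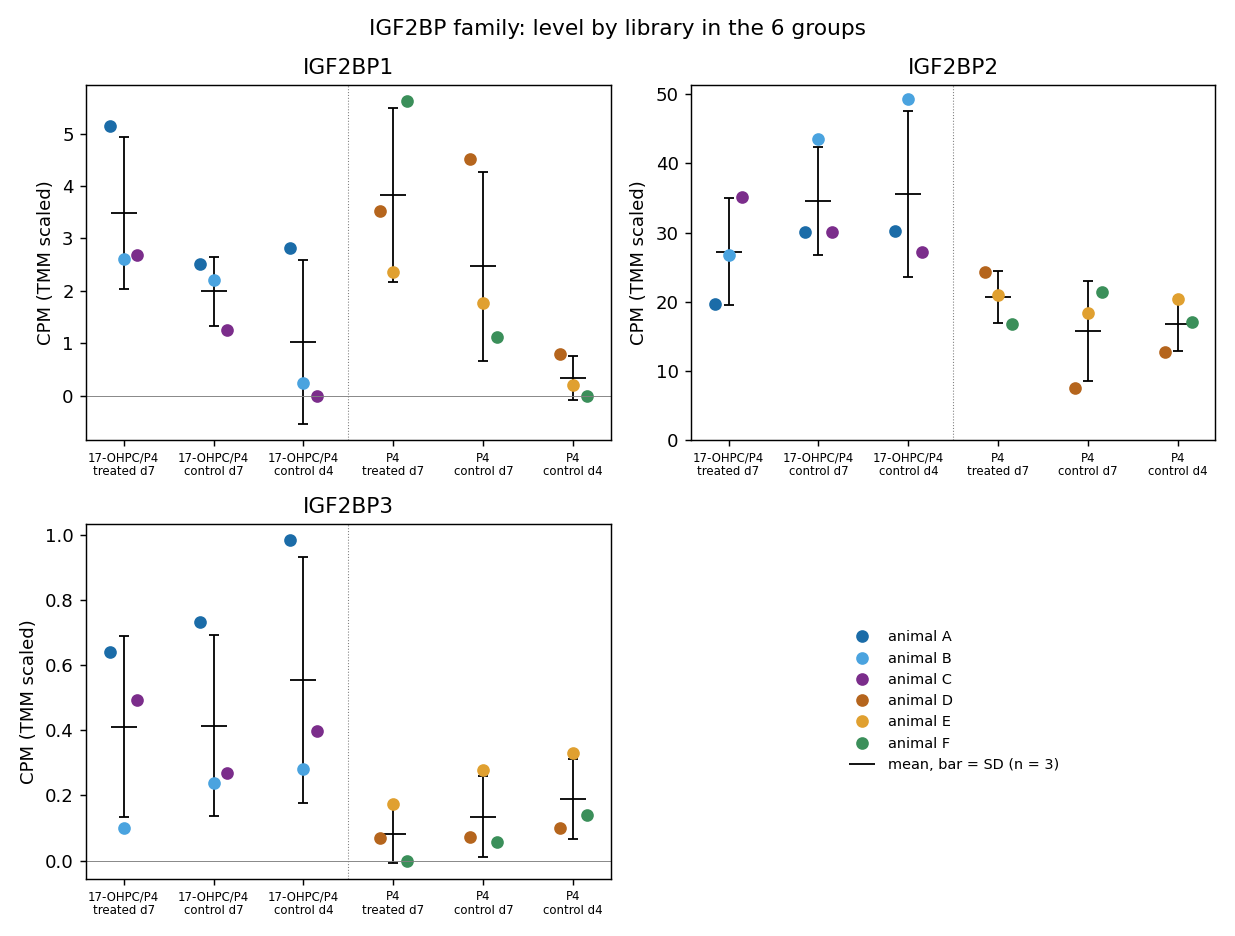
Level of each IGF2BP gene (CPM, TMM scaled, vertical axis) in the 18 libraries, by group, with treated day 7, control day 7 and control day 4 from left to right in each arm. Each point is 1 animal, the line is the mean and the bar the SD (n = 3). IGF2BP1 is lowest on control day 4 except in animal A, and IGF2BP2 is higher in the control libraries of animals A to C than in those of D to F.

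In the 17-OHPC/P4 arm, 0 of the 7 genes passed the test between treated day 7 and control day 4, beside 0.682% of all genes (134 genes, edgeR). DESeq2 and limma voom also called 0 of the 7. With MEX3A counted as a description, 1 of the 7 (MEX3A) had an unadjusted edgeR p under 0.05, beside 20.5% of all genes. MEX3A was lower in 3 of 3 animals (-1.10 ± 0.42), and its groups did not overlap, which held in the same direction for 12.9% of all genes. MEX3C (-0.31 ± 0.20) and MEX3D (-0.28 ± 0.23) were each lower in 3 of 3 animals, with overlapping groups. MEX3B (-0.36 ± 0.66), IGF2BP2 (-0.39 ± 0.35) and IGF2BP3 (-0.44 ± 0.91) had 95% intervals that included 0. Without animal C the value for MEX3A was -1.15 ± 0.43 and that of MEX3B changed sign (0.26 ± 0.37).

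**Figure D3:**
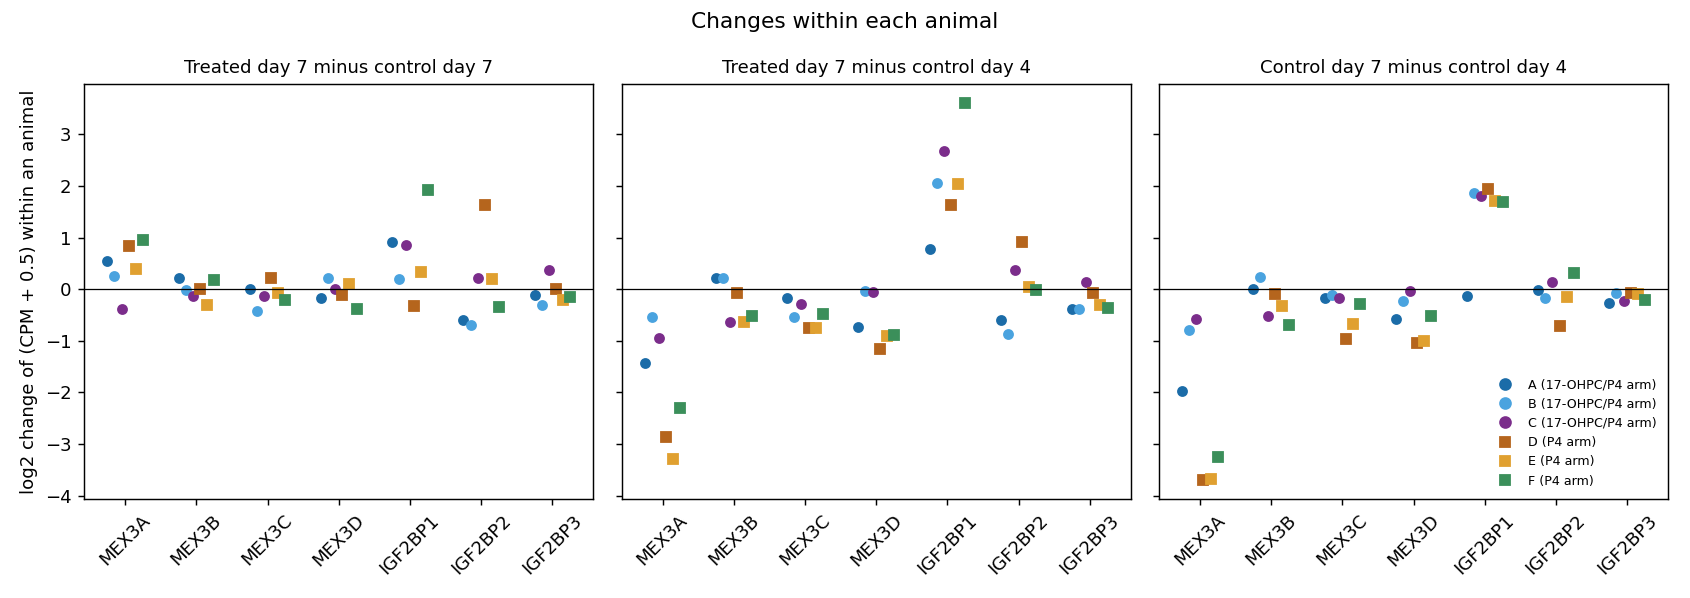
Change of each gene within each animal, as the difference of log2(CPM + 0.5) (vertical axis), for treated day 7 minus control day 7, treated day 7 minus control day 4, and control day 7 minus control day 4. Each point is 1 animal, circles for the 17-OHPC/P4 arm and squares for the P4 arm. MEX3A lies below 0 in both panels that use control day 4, from -3.28 to -0.54 when treated and from -3.70 to -0.57 in the control cycle.

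Treated day 7 against control day 7 compares the same day of the cycle, and holds injection and cycle order together. None of the 7 genes passed the edgeR test in the 17-OHPC/P4 arm, in the P4 arm or over both, and 0% of all genes did. At an adjusted p under 0.05, DESeq2 called 1, 2 and 2 genes in these comparisons and limma voom 0, with 0 of the 7 among these calls. At an unadjusted p under 0.05, edgeR listed 371, 596 and 850 genes of 19638. Of the 7, 1 was below that unadjusted p (MEX3A in the P4 arm). There its treated value was higher in 3 of 3 animals and the groups did not overlap, which held in the same direction for 3.34% of all genes. The log2 fold change was 0.95 ± 0.43. These control day 7 libraries were the low side of the change that chose MEX3A, so a higher treated value is favored by the choice and is no test of the injection.

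In the 17-OHPC/P4 arm MEX3A had a log2 fold change of 0.02 ± 0.42 (95% interval -0.88 to 0.92), positive in animals A and B and negative in C. Without animal C it was 0.46 ± 0.43. Over both arms MEX3A had 0.49 ± 0.30, higher in 5 of 6 animals. IGF2BP1 was likewise higher in 5 of 6 (0.72 ± 0.89, adjusted p = 0.926, edgeR), and in the 17-OHPC/P4 arm its treated libraries lay wholly above control day 7 (0.80 ± 1.26), which held in the same direction for 3.98% of all genes. The fold changes of the 7 genes ran from -0.35 ± 0.35 for IGF2BP2 to that of IGF2BP1 in the 17-OHPC/P4 arm, and from -0.67 ± 1.06 for IGF2BP3 to that of MEX3A in the P4 arm. Their medians were -0.02 and -0.04, against -0.05 and 0.02 for all genes tested.

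**Figure D4:**
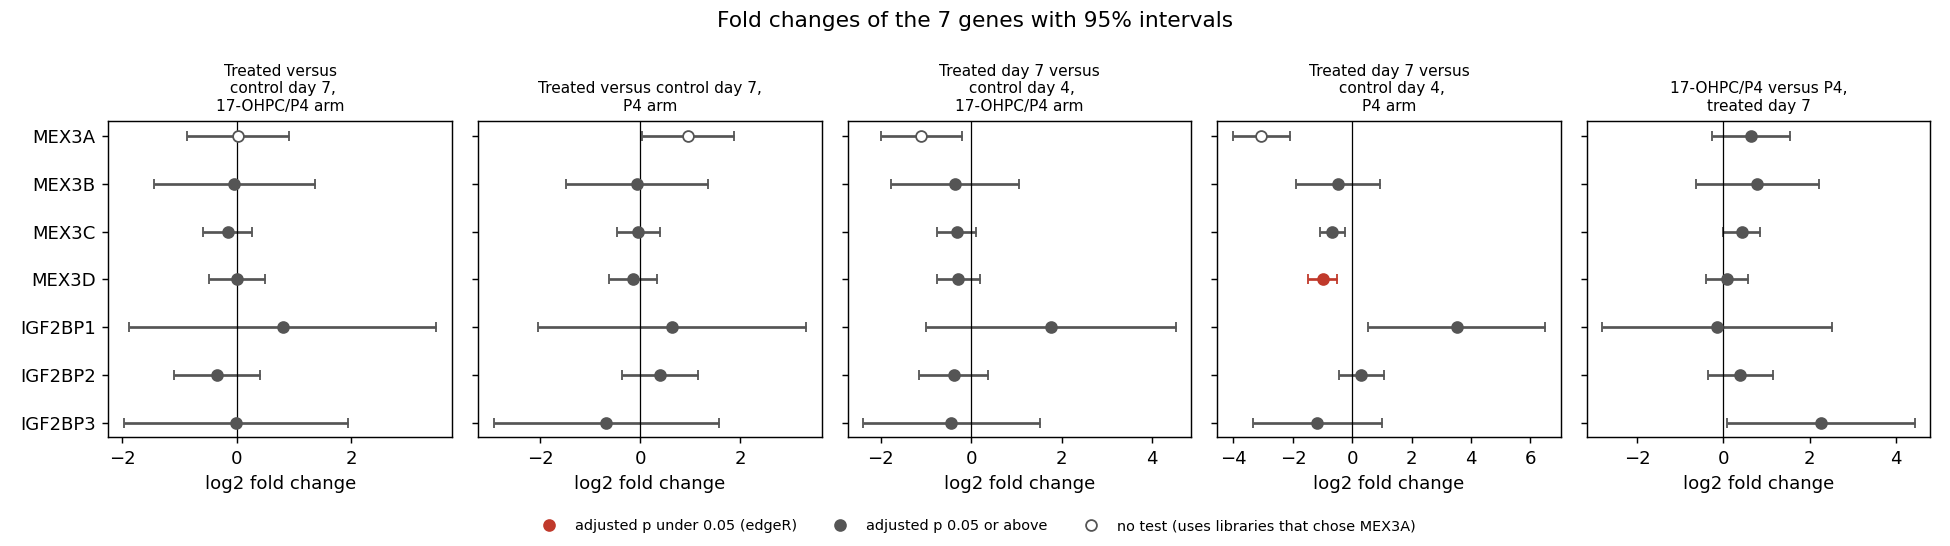
Fitted log2 fold change (horizontal axis) of the 7 genes in 5 comparisons, with 95% intervals as bars. The red point, MEX3D (-0.99) for treated day 7 versus control day 4 in the P4 arm, passed an adjusted p of 0.05 (edgeR, over 19638 genes), the filled gray points did not, and the open points are MEX3A where the control libraries that chose it enter, drawn without a test. The lowest open point is MEX3A (-3.06) in that comparison.

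Between the treated arms on day 7 (100 mg 17-OHPC with 10 mg P4 against 100 mg P4), 0 of the 7 genes passed, beside 0.0102% of all genes (2 genes, edgeR), and DESeq2 and limma voom called 0 of the 7. MEX3A had 0.65 ± 0.42 (95% interval -0.26 to 1.56, adjusted p = 0.703, edgeR), MEX3B 0.79 ± 0.67 (-0.63 to 2.21), MEX3C 0.43 ± 0.20 (-0.01 to 0.86), MEX3D 0.08 ± 0.23 (-0.40 to 0.57), IGF2BP2 0.39 ± 0.35 (-0.36 to 1.15) and IGF2BP1 -0.14 ± 1.25 (-2.80 to 2.52). Each of these intervals included 0, and none shows that the arms were alike. IGF2BP3 was the 1 gene of the 7 with an unadjusted edgeR p under 0.05 (2.26 ± 1.02, adjusted p = 0.524), beside 9.13% of all genes, on 20, 4 and 18 counts in the 17-OHPC/P4 arm and 2, 6 and 0 counts in the P4 arm. The difference between arms in treated versus control day 7 was also tested: 0 of the 7 genes and 0% of all genes passed in edgeR, 247 of all genes and 0 of the 7 had an unadjusted p under 0.05, and DESeq2 and limma voom called 0 genes. It was -0.74 ± 0.50 for IGF2BP2, and over the 7 genes it ran from -0.93 ± 0.60 for MEX3A, a description, to 0.65 ± 1.38 for IGF2BP3.

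The arms were also set side by side before any injection, where the labels give no treatment and the animals differ. Other differences between the arms, such as the time of sampling or of sequencing, were not tested. On control day 4, 0 of the 7 genes passed in edgeR, beside 2.76% of all genes. MEX3A (-1.31 ± 0.42) and MEX3D (-0.63 ± 0.23, adjusted p = 0.128, edgeR) had lower values in the 17-OHPC/P4 animals, with no overlap of the groups for either, which held in the same direction for 15.5% of all genes. These 2 and IGF2BP2, 3 of the 7 with MEX3A counted as a description, had an unadjusted edgeR p under 0.05, beside 22.2% of all genes. On control day 7 MEX3A stood the other way, with higher values in the 17-OHPC/P4 animals (1.58 ± 0.44, and 0.94 ± 0.39 without animal C). MEX3C had higher values there too (0.54 ± 0.20, adjusted p = 0.353, edgeR). On that day 0 of the 7 and 0.00509% of all genes passed in edgeR. These 2 genes (MEX3A again as a description) and IGF2BP2 had an unadjusted p under 0.05, beside 10.6% of all genes.

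IGF2BP2, the member of its family most often found in adult tissues, differed between the arms in the control libraries. Levels also varied within an animal, and animal D held both the lowest and the highest level of the P4 arm. In the 17-OHPC/P4 arm, animals A, B and C had 19.7, 26.8 and 35.2 CPM on treated day 7, then 30.1, 43.6 and 30.1 CPM on control day 7 and 30.3, 49.3 and 27.2 CPM on control day 4. In the P4 arm, animals D, E and F had 24.3, 21.0 and 16.8 CPM on treated day 7, then 7.56, 18.3 and 21.4 CPM on control day 7 and 12.7, 20.4 and 17.1 CPM on control day 4. Every control library of animals A to C was above every control library of animals D to F, and the treated groups overlapped. The log2 fold change between arms was 1.13 ± 0.36 on control day 7 (adjusted p = 0.271, edgeR) and 1.09 ± 0.36 on control day 4 (adjusted p = 0.0997, edgeR; 0.0344, DESeq2), against 0.39 ± 0.35 on treated day 7. The groups did not overlap in the same direction for 7.11% of all genes on control day 7 and 15.6% on control day 4.

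MEX3B varied by animal. Animal C had 8.71, 9.59 and 13.9 CPM on treated day 7, control day 7 and control day 4, whereas the other 15 libraries held 2.48 to 4.67 CPM. Stromal markers (13 genes, among them COL1A1, COL3A1 and DCN) summed to 3405, 5172 and 7225 CPM in the same libraries of animal C, against 293 to 3526 CPM in the other 15. Smooth muscle markers summed to 218 to 578 CPM in animal C, against 44.0 to 256 CPM, and the blood lists were high there as given above. The part of other cell types in the MEX3B level was not tested. The stromal sums of animal D were also high, at 1918, 3526 and 2206 CPM, where MEX3B was 2.74, 2.72 and 2.92 CPM. IGF2BP3 was low throughout, at 0 to 35 counts per library, and animal A was highest in each of its groups with 0.640, 0.734 and 0.985 CPM.

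**Figure D5:**
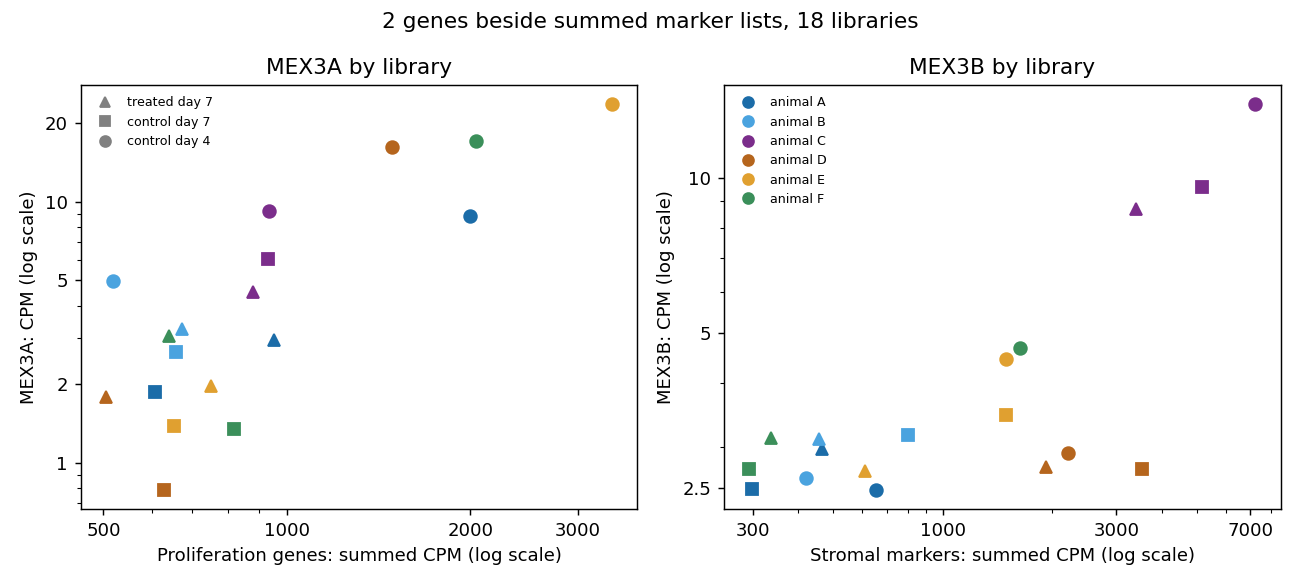
MEX3A level beside the summed CPM of 30 proliferation genes (left) and MEX3B level beside the summed CPM of 13 stromal markers (right) in the 18 libraries, all axes on a log scale. Color marks the animal and shape the group. The control day 4 libraries of animals D, E and F are highest for MEX3A, and the 3 libraries of animal C are highest for MEX3B.

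Genes of cell division fell in the contrast where MEX3A had its lowest treated values relative to day 4. In the list of 30 proliferation genes, 25 fell and 0 rose on treated day 7 relative to control day 4 in the P4 arm, beside 3.16% of all genes lower and 4.32% higher. The largest changes were those of the spindle checkpoint kinase BUB1B (-4.58 ± 1.24, adjusted p = 0.039, edgeR), the mitotic kinesin KIF11 (-4.30 ± 1.10), RRM2, a subunit of ribonucleotide reductase (-4.23 ± 0.93), and the kinetochore protein CENPF (-4.22 ± 1.19). The median log2 fold change of the list was -3.36, against -0.02 over all genes. In the 17-OHPC/P4 arm 0 of 30 passed in edgeR, 8 had an unadjusted p under 0.05, where 20.5% of all genes did, and the median was -1.29 against -0.12 over all genes. The summed level was 505, 752 and 641 CPM in the treated libraries of D, E and F, 629, 652 and 819 CPM on control day 7, and 1487, 3418 and 2045 CPM on control day 4. In animals A, B and C it was 953, 674 and 882 CPM when treated, 608, 657 and 930 CPM on control day 7, and 2002, 518 and 934 CPM on control day 4. In animal B the sum on control day 7 was above that of day 4 while MEX3A was below, and in animal C the sums lay close together while MEX3A was lower on day 7. Marker sums of some other cell types were also lower on treated day 7 in the P4 arm, and those of others were not. Red blood cell markers summed to 2.66 to 3.69 CPM when treated, against 1.35 to 2.20 CPM on control day 4. Smooth muscle markers summed to 52.0 to 256 CPM, against 81.6 to 105 CPM. T and NK cell markers, 16 genes, summed to 118, 121 and 123 CPM in the treated libraries of D, E and F, against 171, 177 and 357 CPM on control day 4, and stromal markers to 1918, 609 and 337 CPM, against 2206, 1491 and 1632 CPM. The T and NK sums did not overlap, and both sums were lower in 3 of 3 animals. However, 0 members of either list passed the edgeR test. At an unadjusted edgeR p under 0.05 stood 9 of 16 and 1 of 13 members, beside 24.3% of all genes. CLDN7, a claudin of epithelial tight junctions (1.34 ± 0.37), and KRT14, a keratin of basal epithelium (3.13 ± 0.70), rose. They were the 1 called member of 12 epithelial and of 5 squamous and basal markers. The sums of both lists overlapped between treated and control day 4 libraries. Epithelial sums were 3812, 6354 and 5260 CPM in the treated libraries of D, E and F, against 5306, 5990 and 4827 CPM on control day 4. The rises of CLDN7 and KRT14 are therefore not read as a rise of their lists. The part of dividing or other cells in the MEX3A level was not tested.

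Other genes that work with these proteins were read in the same contrast, treated day 7 against control day 4 in the P4 arm, where 3.16% of all genes were called lower and 4.32% higher. Of 19 m6A writers, erasers and other readers, 3 fell and 0 rose: METTL16, an m6A methyltransferase (-1.04 ± 0.20), RBM15B, which guides the methyltransferase complex (-0.68 ± 0.17), and the reader YTHDF2, which sends marked mRNAs to decay (-0.55 ± 0.15). Of 19 partners found with IGF2BP proteins in RNA granules, 2 fell and 0 rose, the stress granule protein G3BP1 (-0.90 ± 0.16) and the cap-binding protein NCBP1 (-0.47 ± 0.13). Of 24 other KH-domain proteins 2 fell, KHDRBS1 (-0.61 ± 0.16) and FUBP1 (-0.54 ± 0.13), and 0 rose. The list medians were -0.11, -0.15 and -0.18, against -0.02 over all genes.

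Of 32 factors of CCR4-NOT and other mRNA decay pathways, CNOT1, the scaffold of that deadenylase complex, rose (1.58 ± 0.38) and the helicase DDX6 fell (-0.76 ± 0.22). CNOT1 averaged 1016 ± 147 CPM in treated P4 libraries and 339 ± 67.0 CPM on control day 4 (SD, n = 3 each). Of 22 mRNAs reported as bound by IGF2BP proteins, 1 fell, MYCN (-1.85 ± 0.50), and 0 rose. Of 14 LIN28 and let-7 partners, 1 fell, AGO1 (-0.92 ± 0.26), and 0 rose, while LIN28A, LIN28B and TRIM71 were below the filter at mean levels under 0.01 CPM. Of 22 intestinal stem cell and Wnt feedback genes, the Wnt targets AXIN2 (-1.67 ± 0.47) and ZNRF3 (-1.11 ± 0.25) fell and 0 rose. In these 4 lists 30, 21, 13 and 20 members did not pass, in a contrast where 3.16% of all genes were called lower and 4.32% higher. In the 17-OHPC/P4 arm no member of the 7 lists passed the edgeR test, with 30 of 152 members at an unadjusted p under 0.05, close to the 20.5% of all genes (DESeq2 and voom counts were not made for the lists).

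Across the 18 libraries, MEX3A tracked MEX3D most closely of its relatives (Pearson r of log2(CPM + 0.5) = 0.82), then MEX3C (0.70), and ran against IGF2BP1 (-0.68). Among 14902 genes with a symbol, those most like MEX3A were SLC29A4 (0.950), ZNF84 (0.946), CCM2L (0.943), NEDD9 (0.941) and SETBP1 (0.938). For MEX3B they were MMP1 (0.972), ITGA8 (0.966) and TRPA1 (0.964), and for IGF2BP1 LIMK2 (0.974), MRPS36 (0.971) and SPDYC (0.967). For MEX3C they were OBI1 (0.929), CAPRIN1 (0.904) and OTULIN (0.903), and for MEX3D PRR11 (0.947), ITGB7 (0.935) and a gene with the symbol U6 (0.935). For IGF2BP2 they were WDR73 (0.881), FOXE3 (0.861) and CEACAM19 (0.851), and for IGF2BP3 MRPS22 (0.927), AGFG1 (0.865) and RAB8A (0.855). These are descriptions over libraries that share animals and groups, and animal C sets much of the range for MEX3B.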

How the data were processed

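Counts per gene were used as deposited in 1 table by the authors. Per the submitters' processing notes, cutadapt, FastQC, STAR, featureCounts and DESeq2 were used. The genome build, annotation, strand setting and the way read pairs were counted are not stated in the sources used here. Of counts from 1 to 20, 78.3% were even, against 50.8% of those over 1000, so floors are in counts, not fragments, and cover counting error only. Genes kept by filterByExpr were fitted with edgeR 4.0.16 (R 4.3.3, TMM, robust quasi-likelihood, 1 mean per group, 18 libraries), and Benjamini-Hochberg adjustment ran over 19638 genes. SE is the size of the log2 fold change divided by the root of F. The biological coefficient of variation was 51.4%.

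Labels mark the same animal by letter. Deviations from group means correlated at -0.17 to 0.76 between libraries of 1 animal (over 0.1 in 11 of 18 pairs). These values were 0.45 to 0.76 in animals A, B and C. In animals D, E and F they were -0.17 to 0.40, and those of F were all negative. Between different animals of an arm, 3 of 36 pairs were over 0.1, all among D, E and F and up to 0.36. For D, E and F the pairing is therefore borne out less by the counts. Counts of animals and the block rest there on the labels. Alternatives used DESeq2 1.42.0 and limma 3.58.1 (voom), other scalings and filters, the animal as a block, and left-out libraries. No pair of libraries within a group was identical. Fits were tested on simulated data. The 7 genes and all gene lists were chosen with earlier results of these data known. The naming rule covers all 7 genes in every comparison, some of them here only within a range of fold changes, list members that passed with up to the 4 largest changes in the comparison where lists are described, and the 5 (MEX3A) or 3 most alike genes.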

Additional observations from a re-analysis of the deposited data

Results flagged for a closer look

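Each gene was checked for a single library far from the other 5 in the control groups, over both arms, and 6 of 14 such sets held one. The rule marks about 1 in 20 if the values of a set follow 1 normal distribution and sets are independent. These sets pool both arms on the CPM scale, and both days hold the same animals. No excess is therefore read from the count. For MEX3B it was animal C on control day 7 (9.59 CPM) and on control day 4 (13.9 CPM), and for MEX3A animal C on control day 7 (6.03 CPM). For IGF2BP1 it was animal A on control day 4 (2.81 CPM), and for IGF2BP3 animal A on control day 7 (0.734 CPM) and on control day 4 (0.985 CPM).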

How the results depend on the processing

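For treated day 7 versus control day 4 in the P4 arm, where 2 of the 7 genes passed with MEX3A counted, leaving out single libraries gave 1 to 3. DESeq2 called 4 there (MEX3C and IGF2BP1 joining), 2 between arms on control day 4 (MEX3A and IGF2BP2) and 1 on control day 7 (MEX3A), and limma voom called 1 on control day 4 (MEX3A). These MEX3A calls come from the control libraries that chose it, so they are a description and no test. Counts over all genes are not given here for DESeq2 on control day 7 or limma voom on control day 4. With the animal as a replicate block 3 passed in the P4 comparison with day 4, MEX3C joining, and the block changed no call in the other comparisons between treated and control groups. Over all genes the block called 2702 in place of 1468 in that comparison and 1029 in place of 134 in the 17-OHPC/P4 arm, where leaving out animal C left 5. DESeq2 called 2915 and 1448 in these, and 2220 in place of 542 between arms on control day 4 (9 without animal C). DESeq2 started from all 38001 genes and not from the 19638 that passed the filter. Its counts are therefore over another set of genes. Treated versus control day 7 in the 17-OHPC/P4 arm changed sign for MEX3A with library size as the only scaling (-0.0173) and ran from -0.28 to 0.66 with single libraries left out. So did IGF2BP3 in the P4 arm (-1.92 to 0.36) and IGF2BP1 between treated arms (-0.53 to 0.25, and 0.0160 without animal C). With single libraries left out, treated day 7 versus control day 4 in the 17-OHPC/P4 arm ran from -1.06 to 0.95 for MEX3B (0.256 without animal C) and from -0.90 to 0.27 for IGF2BP3, MEX3D between treated arms from -0.13 to 0.19 (-0.13 without animal C), and the difference between arms for IGF2BP3 from -0.38 to 1.93. Library size alone shifted values for the control cycle of the P4 arm down by about 0.26 to 0.28. The causes were not tested. The library-size scaling and the omission of animal C were chosen after seeing the data. No block could be fitted between arms at 1 time, and IGF2BP1 and IGF2BP3 at low counts gave no value in some fits of only the compared groups.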
